A study of Mus musculus with 2 samples.

Results

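The Slc25 genes encode the mitochondrial carriers, a family of membrane proteins, and were chosen here as every gene whose symbol is Slc25a followed by a number. This rule found 47 genes, all annotated as protein-coding, among 55536 mouse gene rows. They were measured by total RNA sequencing in the hearts of 2 adult male B6CASTF1/J mice, which the labels describe as a cross of B6 and Cast mice aged 8 to 10 months. Each animal gave 1 library from 300 ng of RNA, and the libraries are called replicate 1 (labelled animal 2) and replicate 2 (labelled animal 4). Both animals were of the same strain, sex and age range, and no treatment is given. No second condition exists, so levels are described and genes are compared within libraries. The labels give both libraries the same donor entry under different animal numbers, so the spread between them may be partly technical.

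Mitochondrial carriers sit mostly in the inner mitochondrial membrane and exchange nucleotides, phosphate, metabolic acids, amino acids, acylcarnitines, cofactors and metals between the mitochondrial matrix and the cytosol. Most substrates are served by more than one gene, and the copies differ in tissue, in control by calcium or in the direction of exchange. In heart muscle, which makes nearly all of its ATP in mitochondria, the exporter of ATP and the importer of phosphate are known to be abundant.

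The libraries held 42.05 M (replicate 1) and 39.98 M (replicate 2) expected counts on mouse genes, and levels are in TPM, which corrects for transcript length and is scaled to a fixed sum per library. In what follows ± is the SD over the 2 libraries (n = 2). The tissue label was checked with markers. All 6 heart muscle markers, Myh6 and Myl2 among them, were present with a list median of 4226 ± 297 TPM. All 4 testis germ cell markers had 0 counts in both libraries, and none of 4 hepatocyte or 4 neuron markers reached 1 TPM in both. Of 4 fast skeletal muscle markers 2 did, with summed levels over the 4 of 5.52 TPM in replicate 1 and 5.77 TPM in replicate 2. So did all 4 macrophage, all 4 endothelial and all 4 fibroblast markers. Erythroid markers differed between the animals, with summed levels of 6319 TPM in replicate 2 and 11662 TPM in replicate 1.

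The family was expressed broadly but very unevenly. Of 47 members, 35 (74.5%) had 1 TPM or more in both libraries, against 10755 of 22015 nuclear protein-coding genes (48.9%). The median member stood at 5.76 TPM in replicate 1 and 6.01 TPM in replicate 2, and the median nuclear protein-coding gene at 1.04 and 0.98 TPM in the same order. Together the members held 0.980 ± 0.0164% of nuclear protein-coding TPM. The 2 highest members, the ADP/ATP carrier Slc25a4 and the phosphate carrier Slc25a3, held 71.9 ± 0.645% of the family's TPM, the 6 highest held 88.0 ± 0.143% and the 10 highest 94.0 ± 0.0236%. At the other end 12 members were below 1 TPM in at least 1 library, 5 of them with 1 to 10 counts over both libraries and 2 with no count at all. In the order of mean levels, 21 of 46 steps between neighbours had ranges over the 2 libraries that did not overlap, and the first 11 members were each apart from the next. In the second quantification the ranges of Slc25a12 and Slc25a20 overlapped. The other 25 steps, all between members below 25 TPM, could not be ordered beyond the spread between the libraries.

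**Figure D1:**
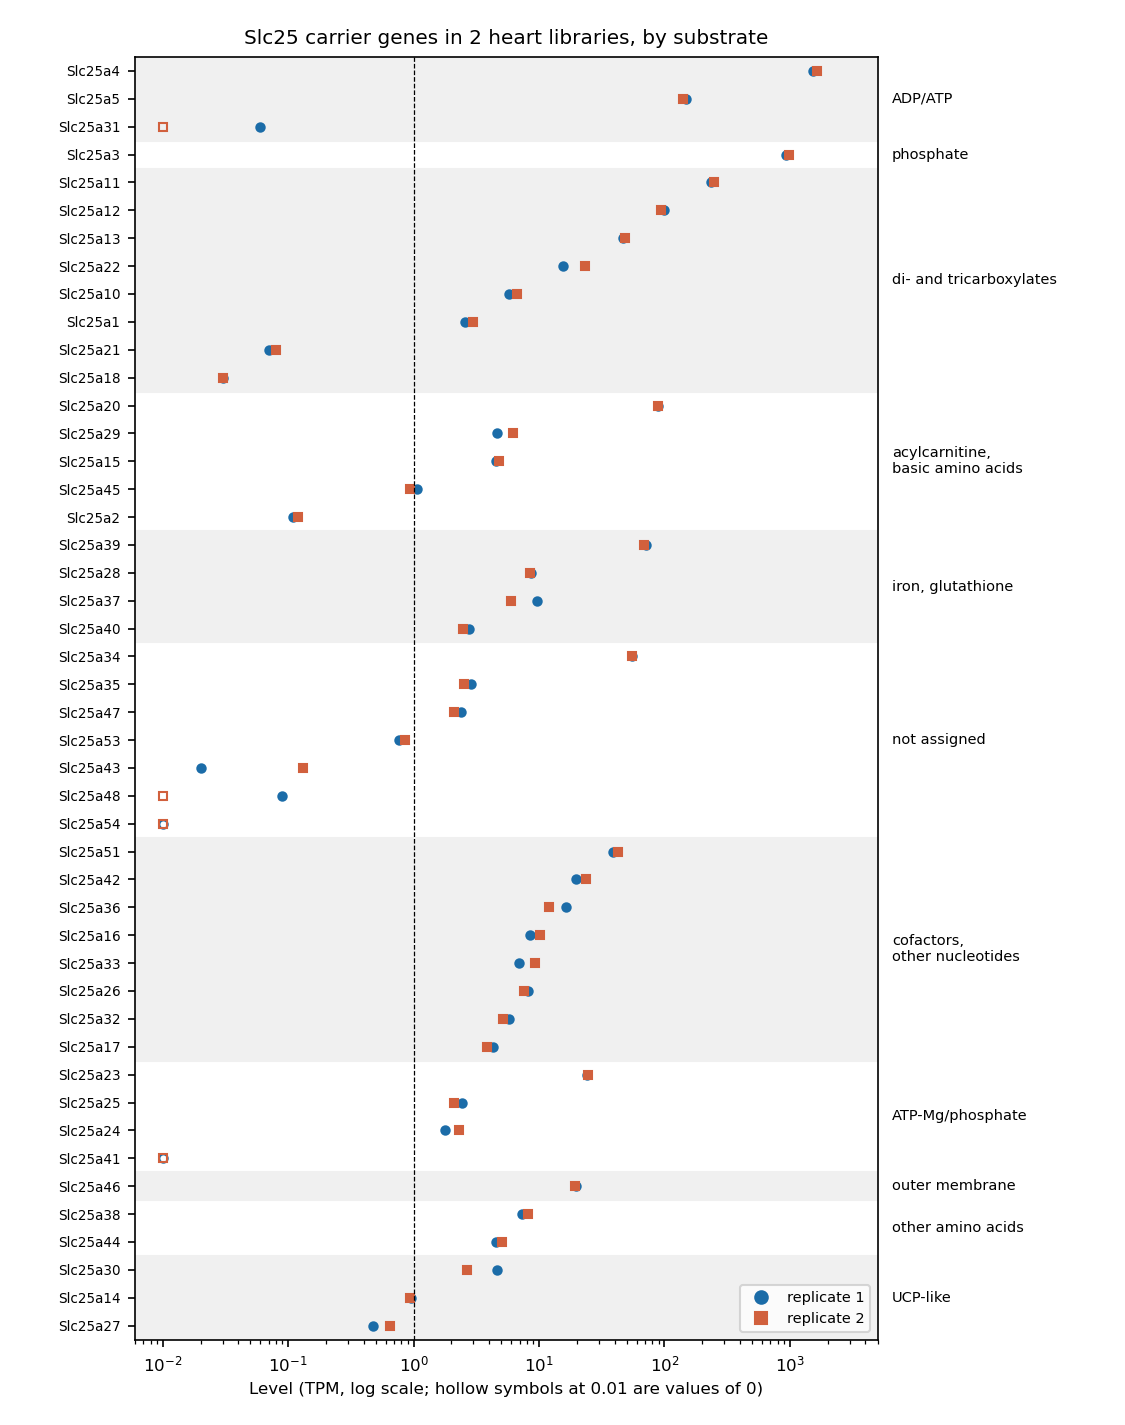
Level of 46 Slc25 genes (x axis, TPM on a log scale) in replicate 1 (circles) and replicate 2 (squares), grouped by substrate; hollow symbols at 0.01 stand for a value of 0 and the dashed line for 1 TPM. Slc25a4 and Slc25a3 lie farthest to the right, and 4 members lie above 100 TPM in both libraries.

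The carriers that exchange ADP for ATP were led by a single gene. Slc25a4 (ENSMUSG00000031633.4, mm10 chromosome 8, 46206797 to 46211284, minus strand), the adenine nucleotide translocator of heart and skeletal muscle, had 1542 TPM in replicate 1 and 1645 TPM in replicate 2 and ranked 20th among nuclear protein-coding genes. Slc25a5 (ENSMUSG00000016319.3, chromosome X, 36795651 to 36798807, plus strand), the form found in most tissues, had 148 and 141 TPM in replicates 1 and 2. The third gene, Slc25a31, is known as the form of testis germ cells and had 4 counts in replicate 1 and 0 in replicate 2. Slc25a4 thus exceeded Slc25a5 in both libraries, with a log2 ratio of 3.46 ± 0.11 on the TPM scale (11.0-fold, and 11.8-fold in the second quantification), and was 16.1-fold higher in replicate 1 and 18.0-fold in replicate 2 by expected counts. Over Slc25a31 its count ratio was 23508 in replicate 1 (95% exact interval 9181 to 86279). In replicate 2, where Slc25a31 was at 0, the ratio was 31628 with a floor of 3 counts in its place, and the exact interval starts at 25721.

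The starts of the Slc25a4 and Slc25a5 coding sequences show how far these genes can be told apart by reads. Each coding sequence is 894 bases long and the aligned pair is 77.6% identical, and in the first 90 bases 24 positions differ. They are shown from the start codon, 5′ to 3′, for mm10 chr8:46210833-46210922 (minus strand) and chrX:36795731-36795820 (plus strand), with capitals at the positions that differ from the other gene.
Slc25a4: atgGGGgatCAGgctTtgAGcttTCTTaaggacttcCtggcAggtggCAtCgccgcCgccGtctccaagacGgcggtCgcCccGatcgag
Slc25a5: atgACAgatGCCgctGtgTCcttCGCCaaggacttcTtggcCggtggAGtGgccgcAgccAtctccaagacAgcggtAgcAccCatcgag
No 31-base word of Slc25a4 occurred in another gene's transcripts, whereas 49.4% of those of Slc25a5 occurred in 13 other genes, all pseudogenes. Those pseudogenes were assigned 6.84 counts in replicate 1 and 4.90 in replicate 2, against 5850 and 5277 counts for Slc25a5 itself. The split of reads between Slc25a5 and these pseudogenes is uncertain.

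Phosphate entry was also carried by an abundant gene. Slc25a3 (ENSMUSG00000061904.12, chromosome 10, 91116574 to 91124059, minus strand), which imports the phosphate used for ATP synthesis, had 934 TPM in replicate 1 and 983 TPM in replicate 2 and ranked 38th among nuclear protein-coding genes. It was lower than Slc25a4 in both libraries, with a log2 ratio of -0.73 ± 0.013.

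Slc25a3 has alternative coding exons that are used one in place of the other, of which form A is known from heart and skeletal muscle and form B from most tissues. Exon A (125 bases, chr10:91122207-91122331) is the 3rd exon of transcript Slc25a3-206, and exon B (122 bases, chr10:91121922-91122043) is found in Slc25a3-201 and Slc25a3-203. They share 80 of 126 aligned positions (63.5%). Both are shown on the minus strand, 5′ to 3′, with capitals where they differ, since reads over these positions can be assigned to a form.
Slc25a3 exon A: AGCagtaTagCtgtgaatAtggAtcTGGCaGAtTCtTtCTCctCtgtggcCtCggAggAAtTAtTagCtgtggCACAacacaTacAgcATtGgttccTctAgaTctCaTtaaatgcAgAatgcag
Slc25a3 exon B: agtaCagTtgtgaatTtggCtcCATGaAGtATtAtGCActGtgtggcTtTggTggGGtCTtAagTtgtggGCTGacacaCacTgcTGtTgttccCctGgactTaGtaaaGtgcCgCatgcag
The transcript with exon A had 869.85 TPM in replicate 1 and 915 TPM in replicate 2. Transcripts with exon B had 61.1 and 65.0 TPM in the same order. Form A was therefore 14.2-fold above form B in replicate 1 and 14.1-fold in replicate 2, and made up 93.4 ± 0.0529% of the sum. In the second quantification this share was 83.7 ± 0.384%, and form A was 5.02-fold above form B in replicate 1 and 5.22-fold in replicate 2. Both quantifications thus placed form A first but differed widely in the ratio. The models differ at their ends too. First exons are 88 (Slc25a3-206), 144 (Slc25a3-201) and 398 bases long (Slc25a3-203), and last exons 333, 551 and 317 bases in the same order. Which of these differences the assignment rests on was not tested.

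**Figure D2:**
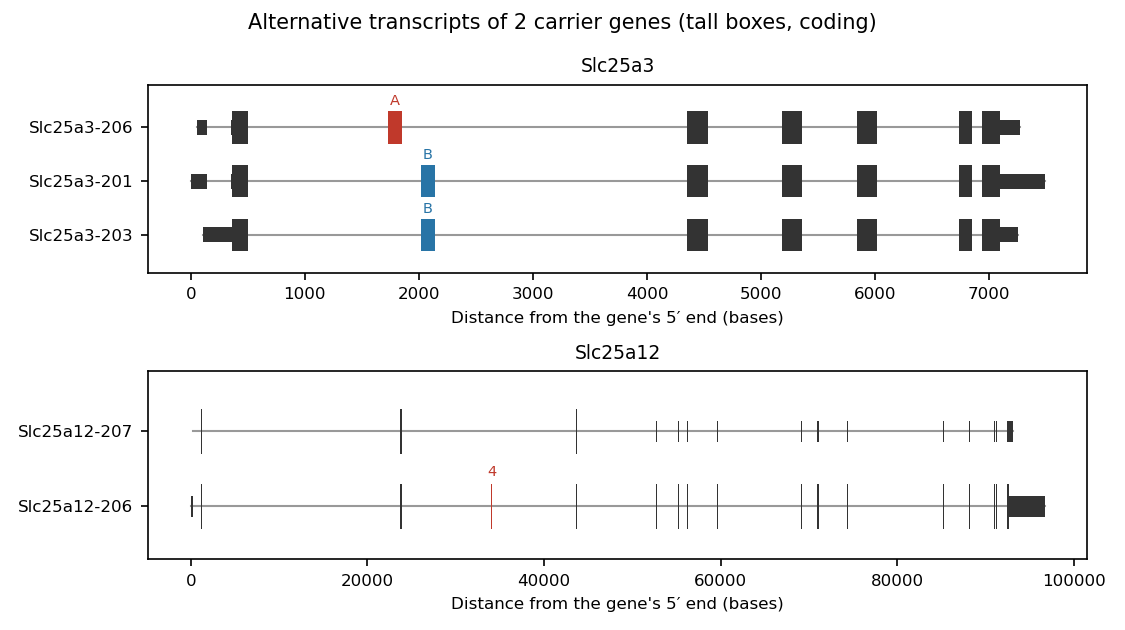
Annotated exons of transcripts of Slc25a3 (upper panel) and Slc25a12 (lower panel), by distance from the gene's 5′ end in bases; tall boxes are coding and low boxes noncoding, and lines are introns. Exon A of Slc25a3-206 (red) and exon B of Slc25a3-201 and Slc25a3-203 (blue) lie side by side, and exon 4 of Slc25a12-206 (red) is absent from Slc25a12-207.

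Carriers of di- and tricarboxylic acids and acidic amino acids held 11.7 ± 0.0199% of the family's TPM, most of it on the 3 members of the malate-aspartate shuttle, which brings the reducing power of cytosolic NADH into mitochondria. Slc25a11, the oxoglutarate/malate carrier of the shuttle, had 234 TPM in replicate 1 and 249 TPM in replicate 2. Of the calcium-stimulated aspartate/glutamate carriers, Slc25a12 had 99.4 and 93.2 TPM and Slc25a13 had 46.8 and 48.7 TPM in replicates 1 and 2. Slc25a12 was higher than Slc25a13 in both libraries, with a log2 ratio of 1.01 ± 0.11 (2.02-fold, and 1.73-fold in the second quantification). Without a correction for length their expected counts differed less, at 1.43-fold in replicate 1 and 1.53-fold in replicate 2. This order holds for all transcripts of each gene together and not for protein-coding ones. The only protein-coding transcript of Slc25a12, Slc25a12-206, had 8.57 and 9.14 TPM in replicates 1 and 2, below Slc25a13-203 alone (43.07 and 48.17 TPM). In replicate 1, 17.3 TPM of Slc25a12 came from 62 counts on the 204-base Slc25a12-204, which had 0 in replicate 2.

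The other members of this substrate group were lower. Slc25a11 exceeded the dicarboxylate carrier Slc25a10 (5.76 and 6.70 TPM in replicates 1 and 2) 38.8-fold and the citrate carrier Slc25a1 (2.56 and 2.95 TPM) 87.5-fold. Its ratio to Slc25a10 was 52.7-fold in the second quantification. Citrate export by Slc25a1 is known as a first step of fatty acid synthesis. Of the glutamate carriers, Slc25a22 had 15.4 TPM in replicate 1 and 23.4 TPM in replicate 2, while Slc25a18 had 2 counts in each library. The count ratio of Slc25a22 to Slc25a18 was 576 (95% exact interval 159 to 4762) in replicate 1 and 752 (208 to 6211) in replicate 2. Slc25a21, which carries oxoadipate, had 4 and 7 counts.

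Slc25a12 reads were assigned mostly to a transcript that is not annotated as coding for the full protein. Slc25a12-207, annotated as a target of nonsense-mediated decay, held 56.3% of the gene's TPM in replicate 1 and 73.9% in replicate 2, and 63.4% in the second quantification. The protein-coding Slc25a12-206 held 9.22 ± 0.838%, and 13.4% in the second quantification. Slc25a12-207 lacks the 116-base exon 4 of Slc25a12-206 (chr2:71333605-71333720, minus strand), a length that is not a multiple of 3, and its annotated coding sequence is 261 bases long against 2031 bases. It is printed here because its absence separates the models, with no base in capitals.
Slc25a12 exon 4: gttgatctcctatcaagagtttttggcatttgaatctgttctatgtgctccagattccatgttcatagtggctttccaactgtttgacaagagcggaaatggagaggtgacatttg
Among transcripts that span this position, those without the exon held 75.7 ± 0.442% of TPM, and 82.0 ± 1.20% in the second quantification. The models differ elsewhere too, since the last exon of Slc25a12-207 is 664 bases long and that of Slc25a12-206 4291 bases. Counts per model were 4464 (Slc25a12-207) and 1865 (Slc25a12-206) in replicate 1 and 5185 and 1875 in replicate 2. Which of these differences the assignment rests on was not tested.

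Fatty acid entry was represented by Slc25a20, the carnitine/acylcarnitine carrier. It had 89.4 TPM in replicate 1 and 88.3 TPM in replicate 2, the 6th highest level of the family. In the second quantification its mean of 84.5 TPM was above that of Slc25a12 (77.3 TPM), with overlapping ranges. The related basic amino acid carrier Slc25a29 had 4.60 and 6.15 TPM in replicates 1 and 2, and Slc25a20 was above it by 4.06 ± 0.31 on the log2 scale. The ornithine carrier Slc25a15, which serves the urea cycle in liver, had 4.56 and 4.82 TPM. Slc25a29 and Slc25a15 could not be ordered, since the mean log2 ratio of 0.18 ± 0.24 was smaller than its SD. Slc25a45 lay at the threshold with 1.07 and 0.93 TPM, and Slc25a2, another ornithine carrier, had 5 counts in each library.

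Among iron and glutathione carriers, the copies of the glutathione pair differed widely in TPM and those of the iron pair less. Slc25a39, a glutathione carrier, had 70.9 TPM in replicate 1 and 69.2 TPM in replicate 2, against 2.74 and 2.46 TPM for its paralog Slc25a40. This is a log2 ratio of 4.75 ± 0.085, or 26.9-fold. Of the iron importers, Slc25a37 (mitoferrin 1, known from red cell precursors) had 9.65 and 6.01 TPM and Slc25a28 (mitoferrin 2, known from other tissues) had 8.65 and 8.41 TPM in replicates 1 and 2. The ratio of Slc25a37 to Slc25a28 was 0.16 in replicate 1 and -0.48 in replicate 2 on the log2 scale, so the order of the iron carriers by TPM differed between the animals. By expected counts Slc25a37 was above Slc25a28 in both, 3.74-fold in replicate 1 and 2.16-fold in replicate 2. In Slc25a37, 7.72% of 31-base words are shared with other genes, mostly with the protein-coding Gm16867, which was assigned 81.5 and 36.1 counts.

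All 9 carriers of cofactors and of nucleotides other than ADP and ATP passed 1 TPM in both libraries, with a group median of 9.28 ± 1.23 TPM. Slc25a51, which imports NAD, was the highest at 39.0 TPM in replicate 1 and 42.5 TPM in replicate 2. Of this, 16.5 and 17.2 TPM lay on the 718-base Slc25a51-205, from 355 and 349 counts. In the second quantification that model had 0 TPM, and the gene had 29.4 and 30.7 TPM. The coenzyme A carrier Slc25a42 followed with 19.5 and 23.8 TPM, above Slc25a16 (8.41 and 10.15 TPM), which is linked to coenzyme A as well, by 1.22 ± 0.010 on the log2 scale. Of the pyrimidine nucleotide carriers, Slc25a33 (6.93 and 9.31 TPM) was below Slc25a36 (16.26 and 11.98 TPM) in both libraries, at -0.80 ± 0.61 (-1.82 from expected counts). This order is that of all transcripts of each gene together. Protein-coding transcripts held 62.2% and 76.1% of the TPM of Slc25a36 in replicates 1 and 2, and all of that of Slc25a33. The leading one, Slc25a36-202, had 9.52 and 8.68 TPM. The S-adenosylmethionine carrier Slc25a26 had 8.17 and 7.56 TPM. Slc25a51 exceeded the folate and FAD carrier Slc25a32 (5.81 and 5.19 TPM) by 2.89 ± 0.20. The peroxisomal member Slc25a17, which carries coenzyme A and FAD, was the lowest of the group at 4.30 and 3.86 TPM.

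The calcium-regulated ATP-Mg/phosphate carriers, which change the size of the matrix nucleotide pool, were led by Slc25a23 with 24.2 TPM in replicate 1 and 24.5 TPM in replicate 2. Slc25a24 had 1.77 and 2.28 TPM, so Slc25a23 exceeded it by 3.59 ± 0.25 on the log2 scale (12.1-fold, and 18.1-fold in the second quantification). By expected counts the ratio was 6.93 in replicate 1 and 9.17 in replicate 2. Slc25a25 had 2.44 and 2.11 TPM, above Slc25a24 in replicate 1 and below it in replicate 2. Slc25a41 had no count in either library. At these depths a count of 0 leaves room for up to 3 counts per library.

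The remaining members with known roles were at low to moderate levels. Slc25a46, an outer membrane protein involved in mitochondrial shape, had 19.8 TPM in replicate 1 and 19.3 TPM in replicate 2. The glycine carrier Slc25a38, needed for heme synthesis, had 7.36 and 8.21 TPM, and the branched-chain amino acid carrier Slc25a44 had 4.55 and 5.06 TPM. Of the members related to uncoupling proteins, Slc25a30 had 4.63 and 2.65 TPM, Slc25a14 0.96 and 0.94 TPM and Slc25a27 0.47 and 0.65 TPM. Slc25a14 was therefore below Slc25a30 in both libraries, at -1.87 ± 0.55 on the log2 scale (-2.77 from expected counts).

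Among the 7 members to which no substrate was assigned here, Slc25a34 stood out by level. It had 54.8 TPM in replicate 1 and 55.1 TPM in replicate 2, the 8th highest of the family and above Slc25a13. Its paralog Slc25a35 had 2.86 and 2.52 TPM, a log2 ratio of 4.35 ± 0.13 (20.4-fold, and 33.3-fold in replicate 1 and 36.6-fold in replicate 2 by expected counts), and their coding sequences are 58.6% identical. Slc25a47, known from liver, had 2.39 and 2.09 TPM and Slc25a53 0.76 and 0.86 TPM. Slc25a43 had 1 and 5 counts, Slc25a48 had 10 and 0 counts, and Slc25a54 had none in either library.

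**Figure D3:**
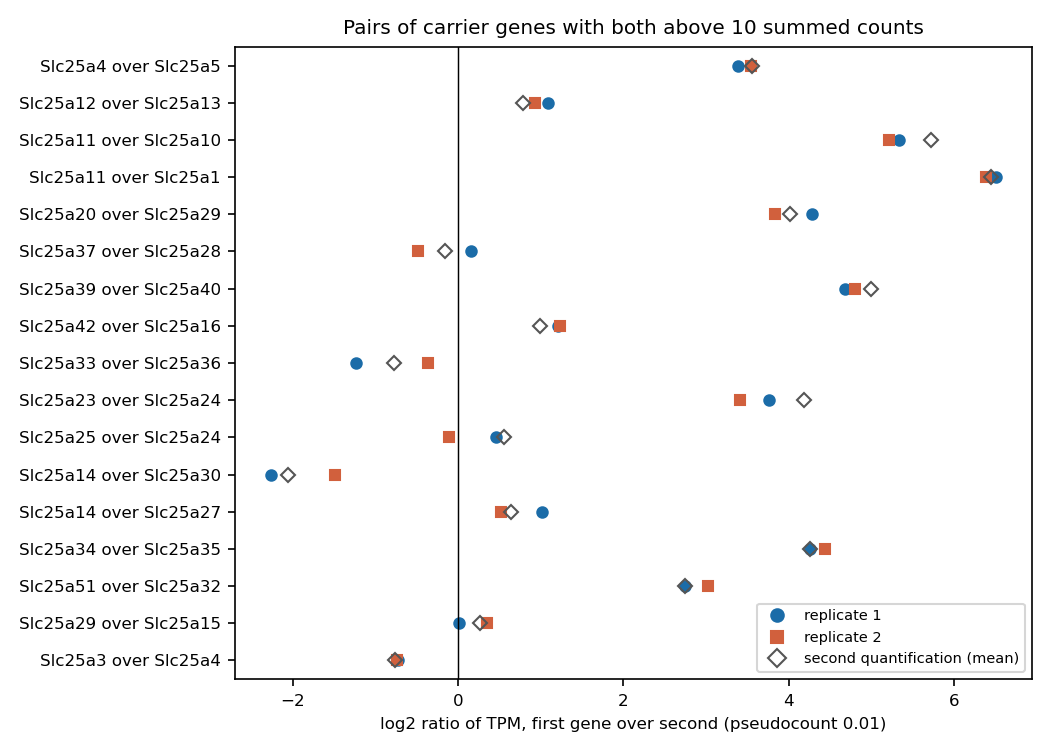
Log2 ratio of TPM, first gene over second with a pseudocount of 0.01 (x axis), for 17 pairs of Slc25 genes in replicate 1 (circles), replicate 2 (squares) and as the mean of the second quantification (diamonds); the line marks equal levels. The pairs Slc25a37 over Slc25a28 and Slc25a25 over Slc25a24 have 1 replicate on each side of the line.

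Over all 19 pairs compared, the gene listed first was higher in TPM in both libraries in 14, lower in both in 3 and higher in one animal only in 2. The 14 include Slc25a29 over Slc25a15, which could not be ordered. They also include Slc25a14 over Slc25a27, whose count ratio was 1.21 in replicate 1 and 0.893 in replicate 2. The pairs were listed with earlier results of these data known, so the tally is only a description. Coding identity between the members of a pair ran from 46.7% (Slc25a3 and Slc25a4) to 77.6% (Slc25a4 and Slc25a5). Pairs of like identity had unlike ratios. In counts, Slc25a12 and Slc25a13, 70.8% identical, were 1.43-fold and 1.53-fold apart in replicates 1 and 2. Slc25a22 and Slc25a18, 68.7% identical, were 576-fold and 752-fold apart in counts, with only 2 counts of Slc25a18 in each library. No p-value is given for any pair, because with 2 libraries the smallest two-sided p of an exact test on signs is 0.5.

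The members lie on 19 chromosomes, 4 of them on the X, and 4 pairs lie within 20 kb of each other. In 3 of these, one gene was expressed and its neighbour was at or near 0. Slc25a23 (24.4 ± 0.156 TPM) lies 2056 bases from Slc25a41, which had no count. Slc25a24 (2.03 ± 0.361 TPM) lies 6461 bases from Slc25a54, also without a count, and their coding sequences are 67.3% identical. Slc25a5 lies 18448 bases from Slc25a43. The starts of Slc25a29 and Slc25a47 face away from each other on opposite strands of chromosome 12 with 162 bases between the genes. Both were above 1 TPM over all their transcripts, at 5.38 ± 1.10 and 2.24 ± 0.212 TPM. Slc25a47 had 69 counts in replicate 1 and 62 in replicate 2, with 25.8% and 30.8% of its TPM on protein-coding transcripts.

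Most of the family's TPM lay on transcripts annotated as protein-coding. The median member at a mean of 1 TPM or more had 96.2 ± 0.959% of its TPM on such transcripts, and the median of 11029 nuclear protein-coding genes was 95.5 ± 0.333%. The share was over 90% in both libraries for 21 of 36 members and under 50% in both for 2, Slc25a12 and Slc25a47 (28.3 ± 3.49%). It differed most between the animals for Slc25a24, at 100% in replicate 1 and 53.9% in replicate 2, but was 100% in both in the second quantification. In Slc25a4, the retained-intron transcript Slc25a4-202 held 11.2% in replicate 1 and 10.4% in replicate 2.

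Leading transcripts were compared between quantifications for 15 members with a mean of 10 TPM or more and several transcripts. The leading transcript held over 50% in both libraries for 14 of them, and the second quantification named the same transcript for 12. Slc25a5-201 and Slc25a20-201 held over 99% in either quantification. The exceptions were Slc25a13, Slc25a42 and Slc25a51. Slc25a13-203 held 95.5 ± 4.84%, and in the second quantification Slc25a13-201 led with 54.7%, but both have a coding sequence of 2028 bases at the same positions. Slc25a42-201 held 88.2 ± 9.75% and then 2.0%, where Slc25a42-202 led with 92.4%, again with coding sequences alike in length at 954 bases. Slc25a51-201 held 43.2 ± 3.63%, with Slc25a51-205 close to it at 41.4 ± 1.30%. Slc25a51-205 is a 718-base model with an incomplete coding sequence and 0 TPM in the second quantification. It was assigned 355 and 349 counts, against 2692 and 2452 counts for Slc25a51-201. In the second quantification Slc25a51-202 led by the mean, with 34.9 ± 19.2% against 20.4 ± 24.4% for Slc25a51-201. There Slc25a51-201 led in replicate 1 (37.6% against 21.4%) and Slc25a51-202 in replicate 2 (48.5% against 3.11%). Slc25a51-201 and Slc25a51-202 have coding sequences of 945 and 894 bases. For Slc25a23 the leading Slc25a23-206 (54.8 ± 1.40%) is a 598-base model with an incomplete coding sequence that was assigned 234 and 215 counts, against 1154 and 1171 counts for the 3362-base Slc25a23-201.

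**Figure D4:**
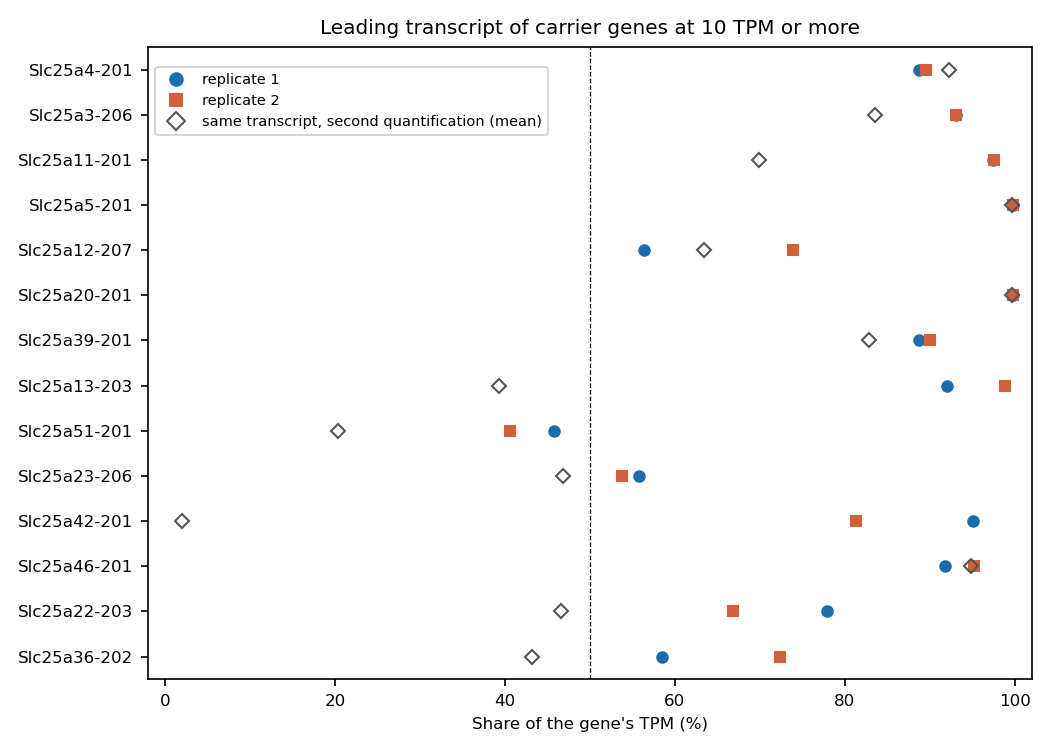
Share of the gene's TPM on its leading transcript (x axis, percent) for 14 Slc25 genes in replicate 1 (circles), replicate 2 (squares) and as the mean of the second quantification for the same transcript (diamonds); the dashed line marks 50%. Slc25a42-201 and Slc25a13-203 are high in both replicates and low in the second quantification.

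Homologs that share the carrier fold but not the symbol had levels from near 0 to those of the upper carriers. Ucp2, an uncoupling protein homolog of many tissues, had 87.2 TPM in replicate 1 and 68.6 TPM in replicate 2. The outer membrane proteins Mtch1 (74.2 and 75.5 TPM) and Mtch2 (63.6 and 70.6 TPM) were close to the level of Slc25a39. Ucp3, the homolog of muscle, had 20.6 TPM in replicate 2 and 7.20 TPM in replicate 1. Ucp1, which makes heat in brown fat, had 5 counts in replicate 2 and 43 in replicate 1. White fat markers moved with it, with 4 of 4 lower in replicate 2, summed levels of 1.35 TPM in replicate 2 and 5.43 TPM in replicate 1 and none at 0. Of the 4 brown fat markers, Ucp1 included, 3 were lower in replicate 2, with summed levels of 14.5 TPM in replicate 2 and 17.4 TPM in replicate 1. Cidea had 471 counts in replicate 2 and 576 in replicate 1, a ratio whose interval holds 1, Dio2 had 33 and 47 in the same order, and Elovl3 had 3 and 1. The part of fat RNA in the Ucp1 counts was not tested.

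Of the lists of genes that work beside the carriers, those of the malate-aspartate shuttle and of ADP and ATP exchange had the highest medians and other inner membrane transporters the lowest. Partners of the ADP/ATP carriers had a median of 406 ± 16.8 TPM with 7 of 7 above 1 TPM in both libraries, among them the ATP synthase subunits Atp5b (3213 ± 113 TPM) and Atp5a1 (1432 ± 70.1 TPM), the mitochondrial creatine kinase Ckmt2 (929 ± 62.2 TPM) and the outer membrane channel Vdac1 (406 ± 16.8 TPM). The 4 malate-aspartate enzymes had a median of 527 ± 27.2 TPM, with the malate dehydrogenases Mdh1 at 978 ± 43.0 and Mdh2 at 698 ± 31.1 TPM and the aspartate aminotransferases Got1 at 355 ± 23.4 and Got2 at 284 ± 16.2 TPM. All 4 were above Slc25a11, except that in the second quantification Got2 (296 TPM) was just below it (298 TPM). Carnitine shuttle partners had a median of 126 ± 6.97 TPM with 5 of 5 above 1 TPM. Cpt1b (260.1 ± 4.50 TPM) and Cpt2 (126 ± 6.97 TPM), the acyltransferases on either side of Slc25a20, were above it, as was the carnitine acetyltransferase Crat (219 ± 18.0 TPM). Genes of heme and iron use had a median of 59.5 ± 0.226 TPM (6 of 6), led by Alas1 (148 ± 7.33 TPM) and Fech (80.9 ± 4.91 TPM). Both were above the iron carriers Slc25a37 and Slc25a28. The machinery that imports and inserts carriers had a median of 25.95 ± 0.283 TPM (9 of 9), with Timm10 at 46.7 ± 0.0283 and Tomm22 at 43.0 ± 0.806 TPM. Other inner membrane transporters had a median of 8.82 ± 0.103 TPM with 9 of 10 above 1 TPM, led by the pyruvate carrier subunits Mpc1 (322 ± 1.32 TPM) and Mpc2 (216 ± 9.86 TPM), which are not Slc25 genes.

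The 2 animals were compared gene by gene. Of 34 members with 200 or more summed counts, none differed by at least 2-fold with an exact counting interval of the ratio (error rate 0.001) that excluded 1, against 118 of 10960 genes (1.08%), a background too low to read anything from 0 calls among so few members. This ratio, of replicate 2 over replicate 1, was scaled by the TMM method of edgeR and has no replicate check, and no p-value is given. The median absolute log2 ratio was 0.13 over these members and 0.11 over all genes tested. The interval alone excluded 1 for 12 of the 34 members (35.3%) and for 1985 of the 10960 genes (18.1%), and it narrows as counts rise. With a limit of 1.5-fold 1 member was called, against 387 genes (3.53%). The other 13 members had too few counts to be tested.

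Slc25a37 was the member past 1.5-fold, with 832 counts in replicate 2 and 1366 in replicate 1, a scaled ratio of 0.632 (exact interval 0.546 to 0.731). All 7 erythroid markers were lower in replicate 2 as well, with summed levels of 6319 TPM in replicate 2 and 11662 TPM in replicate 1, none at 0. The globin gene Hbb-bs had 2272 TPM in replicate 2 and 4229 in replicate 1, Hba-a1 had 2119 and 3872 and Hba-a2 had 1712 and 3128 in the same order. Alas2, the first enzyme of heme synthesis in red cells, had 1335 counts in replicate 2 and 2688 in replicate 1. The 4 neutrophil markers were all lower in replicate 2 too, with summed levels of 1.43 TPM in replicate 2 and 9.61 TPM in replicate 1, and so were the 4 white fat markers (1.35 and 5.43 TPM in the same order), with none at 0. The part of such RNA in the level of Slc25a37 was not tested, and in bulk tissue fewer cells of a type and less RNA per cell cannot be told apart. Slc25a28 had 385 counts in replicate 2 and 365 in replicate 1, a scaled ratio of 1.09 (0.858 to 1.40).

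The next largest ratios were those of Slc25a22 at 1.35 (1.19 to 1.54), Slc25a33 at 1.31 (1.06 to 1.63) and Slc25a30 at 0.731 (0.566 to 0.940). Slc25a4 and Slc25a3, the most deeply read members, had ratios of 1.05 (1.03 to 1.06) and 1.03 (1.01 to 1.05). The homolog Ucp3 was past 2-fold, with 1561 counts in replicate 2 and 565 in replicate 1 and a ratio of 2.87 (2.44 to 3.38).

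**Figure D5:**
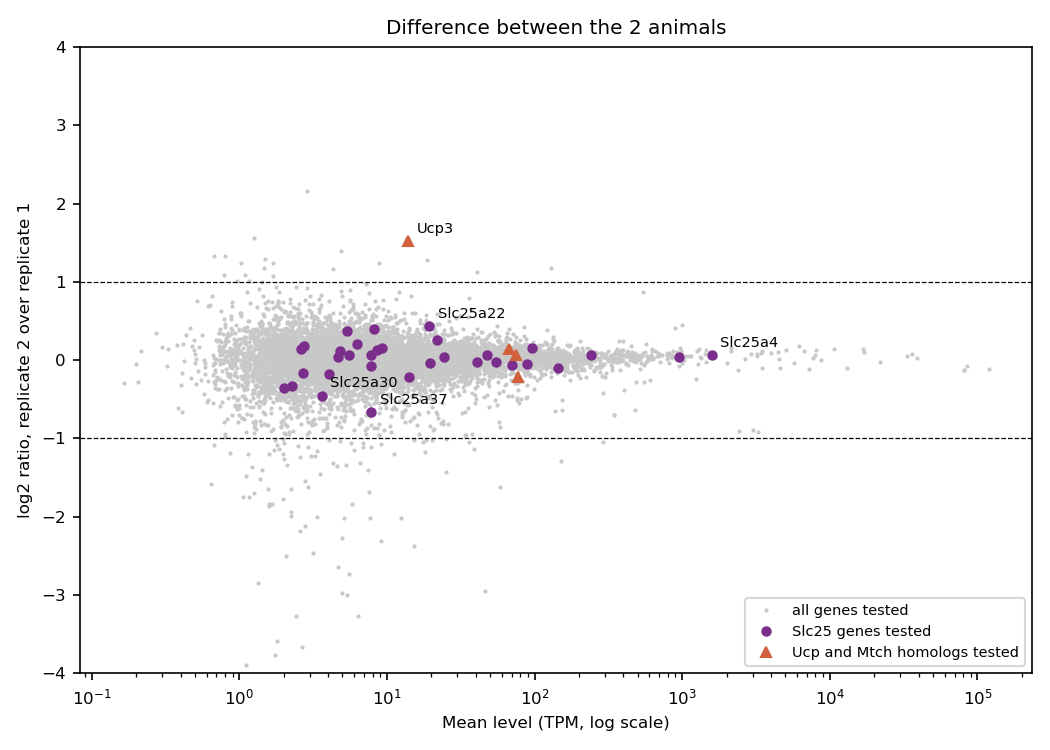
Log2 ratio of replicate 2 over replicate 1 after TMM scaling (y axis) against mean level (x axis, TPM on a log scale) for 10959 genes tested (grey), 33 Slc25 genes (purple circles) and 4 Ucp and Mtch homologs (orange triangles), with dashed lines at 2-fold; 8 genes lie outside the plotted range. All Slc25 genes plotted lie between the dashed lines, and Ucp3 lies above them.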

How the data were processed

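Total RNA-seq of heart from 2 animals of 1 group was analysed. The authors deposited gene and transcript tables with expected counts and TPM in the layout of RSEM, and each transcript's percent of its gene, per the file headers. A further table of transcripts, the second quantification, holds estimated counts and TPM in the layout of kallisto, per the file headers. The file listings deposited with each library name mm10 and GENCODE M21, and the versions of the tools are not stated there or in the labels. The carriers and lists were chosen with earlier results of these data known. A member is named with its values where it leads its substrate group or belongs to a pair, and up to 4 genes of each other list are named by mean TPM, while Alas2 was named after its values were seen. The values of 1 member are not reported here, though the counts over the family include it.

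Levels are the deposited TPM. Of the rows, 26248 with numeric identifiers (at most 1 expected count a library) were left out. Expected counts were rounded and scaled by TMM (edgeR 4.0.16, with DESeq2 1.42.0 size factors as an alternative). A gene was called between animals at 200 or more summed counts, a 2-fold ratio and an exact Clopper-Pearson interval (error rate 0.001) excluding 1. Intervals and floors cover counting error only, as the tables hold no molecular identifiers. The libraries' counts differed by more than sampling noise (chi-square 15.4 per degree of freedom over 17058 genes). Log2 ratios of pairs used a pseudocount of 0.01. Alternatives were other thresholds, denominators, scalings, the second quantification, expected counts and leaving out a library. Exon and coding sequences came from GENCODE M21 transcripts and were aligned with Biopython 1.88. Loss of CAST reads against mm10 was not analysed here.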

Additional observations from a re-analysis of the deposited data

How the results depend on the processing

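The count of members at 1 TPM (35) stayed within 1.5 times under the other thresholds, the second quantification and leaving out a library. The family's share of nuclear protein-coding TPM (0.980%) moved to 0.356% of all mouse genes, 0.561% without mitochondrially encoded genes, 0.900% in the second quantification and 0.824% of expected counts, and was 0.968 to 0.991% with a library left out. Of the 11 substrate groups, 4 had a median of 10 TPM or more and 10 had a summed level of 10 TPM or more. The median coding share moved to 93.7% in the second quantification. Members called between animals went from 0 to 1 at 1.5-fold and stayed at 0 under the other scalings, count minimums and the second quantification. Leaving out a library leaves no ratio between animals and was not run. Log2 ratios changed sign for Slc25a37 over Slc25a28 (1.51 from expected counts, and -0.48 to 0.16 with a library left out). Slc25a25 over Slc25a24 changed sign with a library left out (-0.11 to 0.46), but not from expected counts (0.33) or in the second quantification (0.56). Slc25a29 over Slc25a15 changed sign from expected counts (-0.66), which take no account of length. The cause of the other moves was not tested. No paired analysis was possible because the series holds 1 group. With 1 library per animal, differences between animals have no replicate check, and members below 200 summed counts were not tested.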
